A study of Mus musculus with 6 samples.

Results

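Elongases and desaturases of long and very long chain fatty acids were followed in testes of mice labelled as Hsf5 knockouts and of controls. Hsf5 encodes a germ cell member of the heat shock transcription factor family. The set holds the elongase genes Elovl1 to Elovl7 and the desaturase genes Fads1 and Fads2, chosen by symbol. All 9 were found among the 29333 genes of the deposited table. Whole testes were taken at postnatal day 16. The control group is labelled wild type, and the design text also admits Hsf5+/- animals to it. The other group is labelled knock out and described as Hsf5-/-. Of 3 samples that each group has in the labels, 2 were analysed, called control 1, control 2, knockout 1 and knockout 3. The sources used here name neither the strain nor the deleted part of Hsf5, nor do they say that each library came from its own animal. P-values here therefore reflect only library-to-library spread, which may be technical.

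Fatty acids are lengthened in the endoplasmic reticulum by a cycle of enzymes in which an ELOVL elongase carries out the first, rate-limiting condensation and so sets which chains are made. ELOVL1, ELOVL3, ELOVL6 and ELOVL7 act mainly on saturated and monounsaturated chains. ELOVL2, ELOVL4 and ELOVL5 act on polyunsaturated chains, whose double bonds are put in by the FADS1 and FADS2 desaturases. Testicular germ cells are rich in very long polyunsaturated chains bound in phospholipids and, through ceramide synthase CERS3, in sphingolipids. Mice that lack Elovl2 or Fads2 have impaired spermatogenesis.

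Depth lay between 16209093 reads in knockout 3 and 18557898 in control 2, taking each library's smallest value as 1 read, an assumption behind every number of reads given here. The value used throughout is the authors' normalised read count. Hsf5 stood at 2541 and 3147 in the control libraries (1, then 2) and 1926 and 1602 in the knockout libraries (1, then 3), the order kept below. This was a log2 fold change of -0.69 (SE 0.12, limma Benjamini-Hochberg adjusted p = 0.00716), so transcript remained in the libraries labelled knockout. The call ended without control 2 (adjusted p = 0.108), without knockout 3 (0.072), without the filter on low values (0.0901) and without the mean-variance trend (0.145). Of 17480 genes tested by limma, 2366 fell and 573 rose past an adjusted p of 0.05, and 80.5% of these calls were falls. That share was 57.0% with libraries scaled to their totals and 98.8% with libraries scaled to Sertoli cell markers. All 12 pachytene spermatocyte markers fell, and 4 of 14 Sertoli cell markers rose. Their part in the results below was not tested. In whole testis, fewer cells of a type and less RNA per cell cannot be told apart.

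The classic binding element of the heat shock factor family is made of inverted repeats of the letters GAA. The promoters of the set were searched for GAANNTTC and TTCNNGAA, each of which reads alike on both strands. Whether HSF5 itself binds this element was not tested. RefSeq windows of 300 bases on GRCm38.p6, 250 before and 50 after a transcript start, were found for 7 of the 9 genes and numbered 9. Either motif was present in 2 of these 9 windows, against 15.1% of all 32851 windows. A count from so few windows cannot be told apart from that share. The 2 windows with a match belong to Elovl1, at an alternative start, and to Elovl5. The matches are shown within 30 bases, on the plus strand, with the motif in capitals. They are the places in the searched windows where these letters occur, and were not tested as sites of HSF5. Sequence outside these windows was not searched.
Elovl1, chr4:118429492-118429521: cgtcctggccaGAAGTTTCtggagaaccta
Elovl5, chr9:77917244-77917273: accgcatctgaTTCTGGAAtttacaatcac
Elovl5, chr9:77917263-77917292: tttacaatcacGAAAGTTCtatcgccccag
The sterol element TCACNCCAC, searched on both strands, was in 0 of the 9 windows, against 1.24% of all windows. These matches describe letters and show no binding.

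No gene of the set was called higher or lower in the knockout (limma, Benjamini-Hochberg adjusted p under 0.05), while 13.5% of all tested genes were lower and 3.28% higher. All 9 passed the filter on low values. At an unadjusted p under 0.05 there was 1 gene, Elovl2. The authors' deposited table also has 0 of the 9 below an adjusted p of 0.05, with 11.3% of its genes lower and 2.26% higher. The median log2 fold change was 0.016 in the set and 0.015 over all tested genes. Control and knockout values did not overlap in 4 of the 9 genes, against 61.7% of all tested genes. These were 2 lower genes, Elovl2 and Elovl3 (31.9% of all tested genes), and 2 higher genes, Elovl5 and Fads1 (29.8%). The 95% limma interval stayed within a 1.5-fold change in either direction for 5 genes, Elovl1, Elovl2, Elovl5, Fads1 and Fads2, and 43.5% of all tested genes had so narrow an interval. It stayed within 2-fold for 7, with Elovl3 and Elovl4 outside, against 66.5% of all tested genes.

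**Figure D1:**
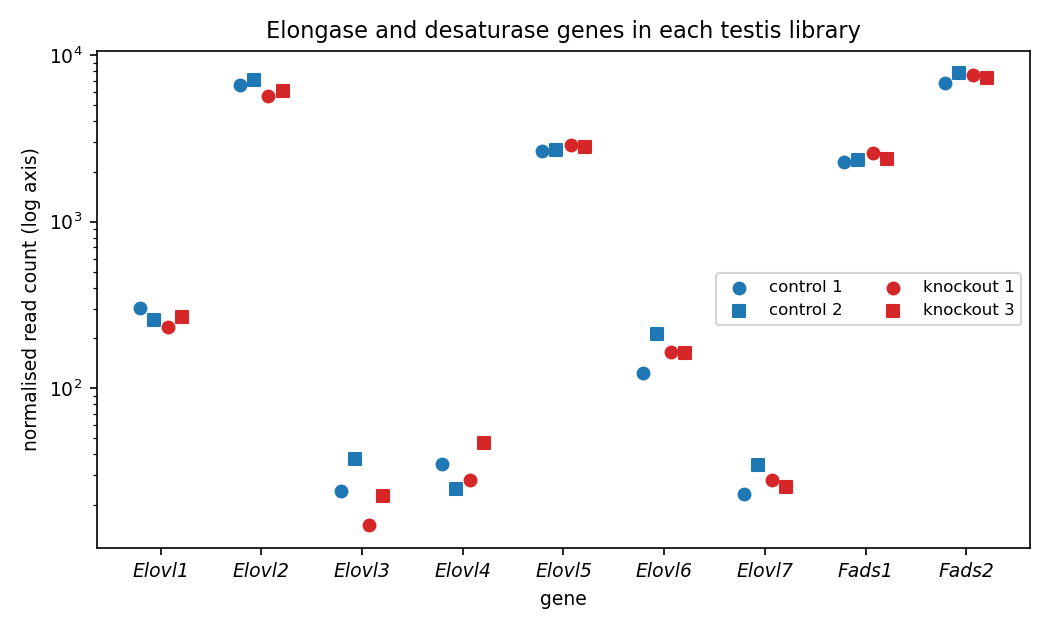
Normalised read count (log axis) of each elongase and desaturase gene in each library, with controls in blue and knockouts in red. Fads2, Elovl2, Elovl5 and Fads1 are at 2273 or more in every library, Elovl1 and Elovl6 between 124 and 304, and Elovl3, Elovl4 and Elovl7 at 47.1 or less.

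Transcript levels of the set differed widely. Levels between genes were compared as normalised read count per kilobase of exon, with exon lengths from GENCODE M21. By the control mean the order was Fads2 at 2214, Elovl2 at 1732, Elovl5 at 759, Fads1 at 481, Elovl1 at 103, Elovl6 at 26.1, Elovl3 at 15.7, Elovl4 at 9.86 and Elovl7 at 7.22 per kilobase. The order was the same with the length of the longest transcript. The top places were thus held by the polyunsaturated branch, that is by both desaturases and the elongases Elovl2 and Elovl5. Neighbours in this order did not overlap over the 4 libraries down to Elovl6, for example 2069 to 2360 per kilobase for Fads2 and 1428 to 1783 for Elovl2. The 3 lowest did overlap: Elovl3 spanned 7.61 to 19.1, Elovl4 8.19 to 15.6 and Elovl7 5.80 to 8.65 per kilobase. Among all tested genes, 98.7% had a lower mean normalised read count than Fads2, 98.2% than Elovl2, and 14.3% than Elovl3.

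Elovl2 encodes the elongase that takes long polyunsaturated chains to their longest common forms. It lies on the minus strand at chr13:41182381-41220405 (GRCm38). Its normalised read count was 6662 and 7073 in the control libraries and 5664 and 6056 in the knockout libraries. Both knockouts were lower than both controls. The mean went from 6868 ± 291 to 5860 ± 277 (SD, n = 2), or 85.3% of control. The log2 fold change was -0.23 (SE 0.071, 95% interval -0.39 to -0.067), with an unadjusted limma p of 0.0114 and an adjusted p of 0.0612. The authors' deposited table gives Elovl2 the same log2 fold change of -0.23 (SE 0.089) with an adjusted p of 0.0679. The interval places the knockout level between 76.3% and 95.5% of control before adjustment for the number of genes. Elovl2 did pass with libraries scaled to Sertoli cell markers (log2 fold change -0.48, limma adjusted p = 0.0079). The scaling used the sum of 14 markers, to which Clu alone gave 61661 of 114220 in control 1 and 72450 of 134521 in knockout 1. That scaling put the median of all genes at -0.23. With libraries scaled to their totals, which put this median at 0.12, Elovl2 did not pass (log2 fold change -0.12, limma adjusted p = 0.283). Nor did Elovl2 pass without the mean-variance trend (limma adjusted p = 0.276). Leaving out each library in turn moved its log2 fold change between -0.28 and -0.18.

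Because a ratio of genes within a library does not depend on scaling, Elovl2 was also set against the other abundant genes of the set, a comparison chosen after their values were seen. The ratio of Elovl2 to Elovl5, in normalised read counts, was 2.51 and 2.62 in the control libraries and 1.97 and 2.16 in the knockout libraries. Its mean in the knockouts was 80.4% of that in the controls. The ratio to Fads1 was 79.6% of control by the same measure (2.93 and 2.996 against 2.19 and 2.53), and that to Fads2 was 83.2% (0.977 and 0.909 against 0.741 and 0.828). The ratios share Elovl2 and restate its values and those of the other genes, so they are a description with no test.

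Elovl5 encodes the elongase that acts on polyunsaturated chains between both desaturation steps. It lies on the plus strand at chr9:77917364-77984519 (GRCm38). Its normalised read count was 2652 and 2695 in the control libraries and 2872 and 2809 in the knockout libraries. Both knockouts were above both controls by less than the test resolves. The fitted log2 difference was 0.087 (SE 0.072, 95% interval -0.078 to 0.25, limma adjusted p = 0.462). The interval allows a knockout level from 94.7% to 119% of control. A searched window of Elovl5 carries the heat shock element letters printed above, and any bearing of these letters on its level was not tested.

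Elovl4 makes the longest chains known in mammals, in retina, skin, brain and testis. Its level corresponds to only 25 to 46 reads per library. Its normalised read count was 34.9 and 24.8 in the control libraries and 28.1 and 47.1 in the knockout libraries. The groups overlapped, and knockout 3 was the highest library. The log2 fold change of 0.30 (SE 0.40, 95% interval -0.62 to 1.22, limma adjusted p = 0.665) was -0.066 without knockout 3 and 0.059 without control 2. A 2-fold rise was therefore within the interval, and a change of Elovl4 was not resolved at this depth.

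Fads2 encodes the desaturase that opens the polyunsaturated pathway. Its normalised read count was 6816 and 7777 in the control libraries and 7641 and 7311 in the knockout libraries. Both knockouts lay between the controls. On the log2 scale the difference was 0.038 (SE 0.079, 95% interval -0.14 to 0.22, limma adjusted p = 0.79). With the authors' normalisation the interval places Fads2 between 90.5% and 116% of control, before adjustment for the number of genes. Fads1, which encodes the later desaturase, lies on the opposite strand of the same chromosome 19 region, chr19:10182888-10196877 against chr19:10062765-10101746 (GRCm38). Fads1 stood at 2273 and 2361 in the control libraries and 2589 and 2395 in the knockout libraries. The knockouts were above the controls, and knockout 3 was above control 2 by less than the knockouts differed from each other. Its log2 fold change was 0.10 (SE 0.080, 95% interval -0.079 to 0.29, limma adjusted p = 0.424). With libraries scaled to Sertoli cell markers the fitted values of Elovl5, Fads1 and Fads2 changed sign, to -0.16, -0.14 and -0.21, beside an all-gene median of -0.23.

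Elovl1 encodes the elongase of saturated very long chains destined for sphingolipids. Its normalised read count was 304 and 256 in the control libraries and 235 and 269 in the knockout libraries. The groups overlapped, since knockout 3 was above control 2. Elovl1 had a log2 fold change of -0.15 (SE 0.16, 95% interval -0.53 to 0.23, limma adjusted p = 0.585). Exons of Elovl1 overlap those of Cdc20 on the other strand over 53 bases in GENCODE M21, and reads there cannot be told apart without strand. The same holds for Elovl6 with Gm35986 over 34 bases and for Elovl3 with Pitx3 over 10, and exons of the other 6 genes of the set overlap no other gene's exons.

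Elovl6 encodes the elongase that turns palmitate into stearate. Its normalised read count was 124 and 212 in the control libraries and 165 and 163 in the knockout libraries. The controls differed by 0.77 on the log2 scale and enclosed both knockouts, which differed by -0.022. Limma gave a log2 fold change of 0.016 (SE 0.26, 95% interval -0.58 to 0.61, limma adjusted p = 0.976). It was -0.37 without control 1 and 0.40 without control 2, so its sign turned with the control that was kept, and the authors' deposited table gives -0.035.

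Elovl3, best known from brown fat and skin glands, and Elovl7, which extends saturated chains, were the remaining low genes. Elovl3 stood at 24.2 and 37.7 in the control libraries and 15.0 and 22.5 in the knockout libraries, corresponding to 15 to 38 reads per library. Both knockouts were below both controls, although knockout 3 lay close to control 1. The log2 fold change of Elovl3, -0.69 (SE 0.44, 95% interval -1.69 to 0.32, limma adjusted p = 0.332), was the largest of the set, and 16.1% of all tested genes had a larger one in size. Leaving out 1 library at a time moved it between -0.99 and -0.38. Elovl7 stood at 23.3 and 34.7 in the control libraries and 28.1 and 25.6 in the knockout libraries, with both knockouts between the controls. Its log2 fold change was -0.082 (SE 0.39, 95% interval -0.98 to 0.81, limma adjusted p = 0.915). Of 5 fat cell markers 1 was abundant enough to be tested and was not called, and the defining marker Adipoq had at most 1 read in any library.

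**Figure D2:**
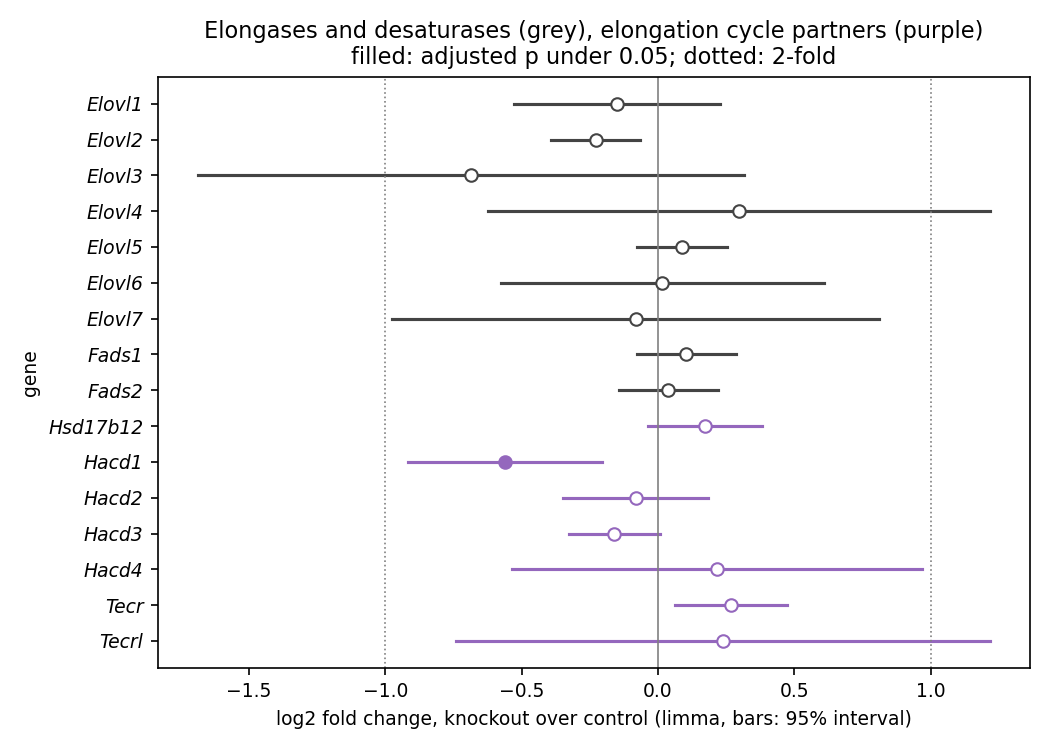
Log2 fold change of knockout over control from limma (x axis) with its 95% interval (bars) for the 9 elongase and desaturase genes in grey and the 7 other genes of the elongation cycle in purple. Filled points passed an adjusted p of 0.05, which Hacd1 alone did, and the intervals of Elovl3, Elovl4 and the partner Tecrl cross the dotted 2-fold lines.

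The elongases work with a reductase, dehydratases and a final reductase. Of these 7 cycle partners, 1 was called lower and 0 higher, or 14.3% and 0%, against 13.5% and 3.28% of all tested genes, with a median log2 fold change of 0.17. The called gene was the dehydratase gene Hacd1, which fell from 309 ± 25.7 to 209 ± 11.8 normalised reads (SD, n = 2), or 67.7% of control (log2 fold change -0.56, SE 0.16, limma adjusted p = 0.0418). The authors' deposited table gives Hacd1 an adjusted p of 0.116, and leaving out any 1 library ended its limma call (adjusted p from 0.0971 to 0.267). The abundant partners Hsd17b12, the ketoacyl reductase, and Tecr, the final reductase, had log2 fold changes of 0.17 and 0.27 and were not called (limma adjusted p = 0.248 and 0.0812). None of the 8 other desaturases was called, against the same shares, among them the stearoyl desaturase Scd2 (log2 fold change 0.090) and the sphingolipid desaturase Degs1 (-0.13).

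Over 8 pathway lists around the set, 11 of 104 tested genes fell and 4 rose, that is 10.6% and 3.85%, shares close to those of all tested genes. Cers3, the ceramide synthase of testis and skin that takes up ultra long chains, stood at 4585 and 5063 in the control libraries and 1508 and 1151 in the knockout libraries. It fell to 27.6% of control (log2 fold change -1.87, SE 0.13, limma adjusted p = 0.000109), beside 85.3% for Elovl2, and stayed called whichever library was left out. Without the mean-variance trend neither Cers3 (limma adjusted p = 0.0836) nor any other of the 15 called pathway genes passed. Sgms1, a sphingomyelin synthase, was the only other of 17 sphingolipid genes to fall (-0.34), so that 11.8% fell and 0% rose, against 13.5% and 3.28% of all tested genes. For Sgms1 the authors' deposited table gives an adjusted p of 0.0828. Cers2, which also takes very long chains, had a log2 fold change of 0.00074.

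Among 18 genes of phospholipid and ether lipid assembly 4 fell and 0 rose, or 22.2% and 0%, against 13.5% and 3.28% of all tested genes. Nothing particular to the list was tested. These were Gnpat, which starts ether lipid synthesis in peroxisomes (log2 fold change -0.66), Lpcat3, which inserts polyunsaturated chains into phospholipids (-0.58), and the phosphatidic acid synthases Agpat1 (-0.47) and Agpat3 (-0.45). Acox3, a peroxisomal acyl-CoA oxidase, fell by 0.79 on the log2 scale and was the only called gene of 13 in chain shortening (7.69% lower). Their limma adjusted p lay between 0.00386 for Agpat1 and 0.014 for Agpat3. Agpat1 kept its call without each library, while Gnpat and Lpcat3 lost theirs without control 2 (adjusted p = 0.0566 and 0.0527). Agpat3 and Acox3 lost theirs without control 2 (0.114 and 0.122), without knockout 1 (0.0584 and 0.0789) and without knockout 3 (0.121 and 0.0601).

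**Figure D3:**
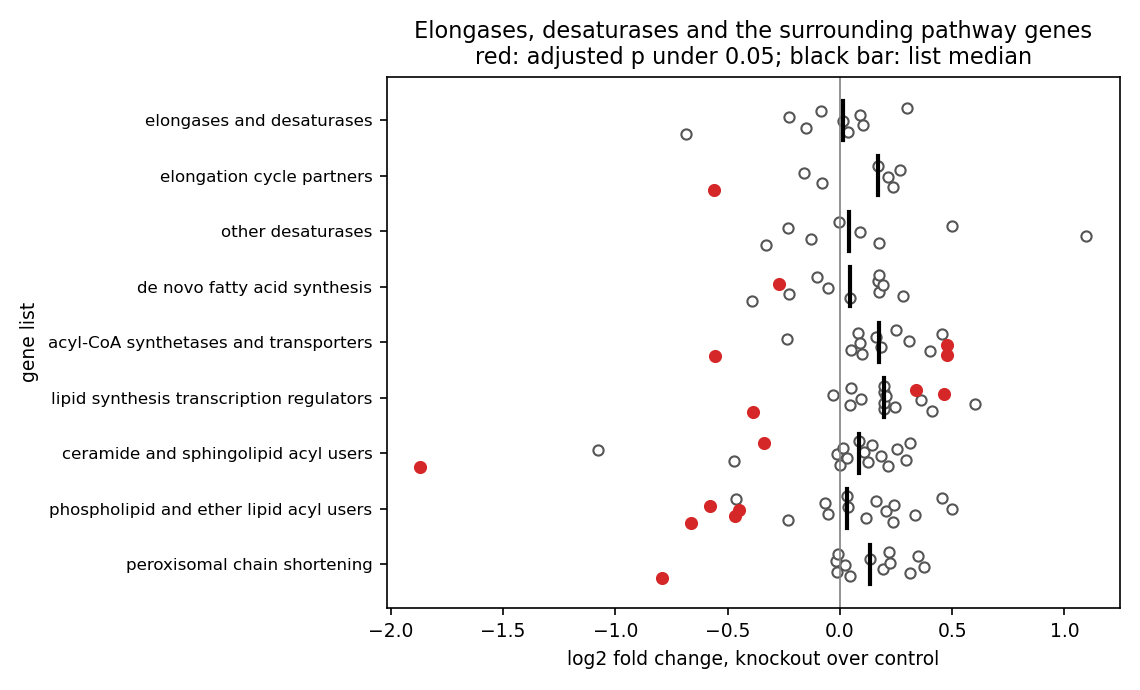
Log2 fold change of knockout over control (x axis) for every tested gene of the 9-gene set and of 8 pathway lists (rows), with called genes in red and list medians as black bars. The set has no red point, and the point farthest left is Cers3 at -1.87.

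Upstream of the elongases, Me1, a source of reducing power for fatty acid synthesis, was the 1 called gene of 11 in de novo synthesis, or 9.09% lower against 13.5% of all tested genes (log2 fold change -0.27, limma adjusted p = 0.0257). Acsl6, an acyl-CoA synthetase that favours polyunsaturated chains, fell (-0.56), and the fatty acid transporter gene Slc27a1 (0.48) and the acyl-CoA binding protein gene Dbi (0.48) rose, out of 14 genes. These are 7.14% lower and 14.3% higher, against 13.5% and 3.28% of all tested genes. Of 16 regulators of lipid synthesis, the glucose-sensing factor gene Mlxipl (0.46) and Scap (0.34), the escort of the sterol-regulated factors, rose, and Insig2, which retains SCAP, fell (-0.39), or 12.5% higher and 6.25% lower. Calls of Me1, Mlxipl, Scap and Sgms1 were lost without any 1 library (limma adjusted p from 0.0568 to 0.26). Calls of Acsl6 and Insig2 were lost without control 2, knockout 1 or knockout 3 (0.0618 to 0.18), of Dbi without control 1, control 2 or knockout 1 (0.0568 to 0.12), and of Slc27a1 without control 2 or knockout 3 (0.0603 for both). None of the 4 rises passed with libraries scaled to Sertoli cell markers. With libraries scaled to their totals the falls of Hacd1, Me1, Insig2 and Sgms1 did not pass.

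**Figure D4:**
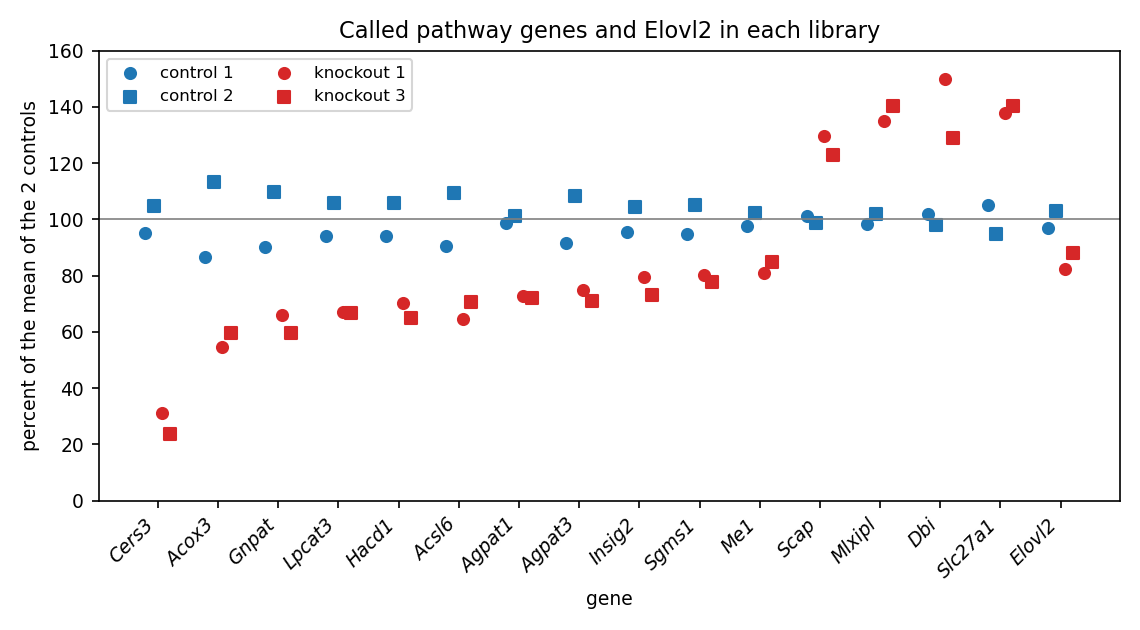
Normalised read count of the 15 called pathway genes and of Elovl2 in each library, as a percent of the mean of the 2 controls. Cers3 lies at 31.3% and 23.9% in the knockouts and Elovl2 at 82.5% and 88.2%. In each gene shown the knockouts lie outside the range of the controls, as in 61.7% of all tested genes. The 15 genes are shown because they were called, so this separation adds no support to the calls.

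Cell type markers measured beside these values moved in part. Summed pachytene spermatocyte markers were 56509 and 83878 in the controls and 20622 and 16537 in the knockouts, and their median log2 fold change was -2.85. Summed Sertoli cell markers were 114220 and 106913 in the controls and 134521 and 128148 in the knockouts. Of 8 early meiotic prophase markers 1 was called lower (12.5%). Of 11 spermatogonial markers 3 were called higher (27.3%) and 1 lower (9.09%). Among all tested genes 13.5% were called lower and 3.28% higher. Among 7 Leydig cell markers 1 was called higher, Nr5a1 (log2 fold change 0.27), while the median of the 7 was -0.22. Among 3 red blood cell markers 2 rose, and of 2 tested spermatid markers 1 fell. No marker of myoid cells, macrophages or endothelial cells was called, and no epididymis marker was abundant enough to be tested. The pachytene markers also differed between the controls, with a median log2 difference of control 2 over control 1 of 0.77. By the same measure the 9 genes of the set ranged from -0.48 for Elovl4 to 0.77 for Elovl6, with Elovl3 at 0.62, Elovl7 at 0.56 and Elovl2 at 0.086.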

How the data were processed

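The NEBNext Ultra kit was used on total RNA of whole testis, per the labels' protocols. Tools named in the submitters' processing notes are cutadapt, Bowtie2, featureCounts and DESeq2, with the build mm39. Neither strand setting nor annotation release is stated in the sources used here. The signal values deposited by the authors are normalised read counts. In each library 100% of them were whole multiples of its smallest value within 1e-06, and these multiples are given as reads. In control 2 and knockout 1 the step is close to 1, and there whole reads could not be established. Per gene, the deposited table also holds a log2 fold change, its standard error, a test score and both a raw and an adjusted p-value, per the file headers. It has columns for 4 of the 6 samples, and the other 2 were not analysed here. No count test was run.

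Limma (version 3.58.1, R 4.3.3) was fitted to log2(value + 1) of the 17480 genes whose mean reached 10, letting the variance follow the mean. A Benjamini-Hochberg adjusted p below 0.05, over all tested genes, made a call, and fold changes on this scale understate those of low genes. The fit had 2 residual and 6.3 prior degrees of freedom, so p-values rest largely on variance pooled over genes. Intervals are limma's 95% intervals, not adjusted for the number of genes. Lengths and overlaps came from GENCODE M21 (GRCm38) and promoters from RefSeq (GRCm38.p6), while the deposited table rests on mm39, so coordinates only locate genes.

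The genes of the set, 8 pathway lists and 12 marker lists were chosen with earlier results of these data known. All 9 genes of the set were named, with Hsf5 and up to 4 called genes of each pathway list with the largest change, or the 2 with the highest mean where none was called. Hsd17b12, Tecr, Cers2 and Adipoq were named after their values were seen. The rule for genes of like pattern needed a called gene of the set and so gave none.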

Additional observations from a re-analysis of the deposited data

How the results depend on the processing

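Over 11 alternatives, 86 of 96 values of the 9 genes kept their sign and stayed above the threshold (Elovl3, Elovl4 and Elovl7 have none at a minimum mean of 50). The count of genes of the set called lower was 1 with libraries scaled to Sertoli cell markers (Elovl2), and 0 under the other 10 alternatives. In that scaling the log2 fold change was -0.16 for Elovl5, -0.23 for Elovl6, -0.14 for Fads1, -0.21 for Fads2 and -0.16 for Scd2. With libraries scaled to their totals Elovl7 stood at 0.023. Leaving out 1 library in turn gave -0.066 to 0.66 for Elovl4, -0.37 to 0.40 for Elovl6, -0.36 to 0.20 for Elovl7, -0.057 to 0.13 for Fads2 and -0.019 to 0.20 for Scd2. Over all genes, the falls numbered 815 without a filter on low values, 40 without the mean-variance trend and 4509 with Sertoli scaling, and the rises 37, 0 and 57. Scaling to library totals gave 1511 rises and put the median of all genes at 0.12. Without 1 library the falls ranged from 889 to 2096 and the rises from 31 to 337. Of the 15 called pathway genes, 0 kept their limma call without the trend, 3 without the filter, 11 in either scaling, and between 2 (without control 2) and 9 (without control 1) when 1 library was left out. The cause of these differences was not tested. No paired analysis was possible because the columns of the groups share 1 replicate number. The edgeR and DESeq2 fits on whole reads were not run, because whole reads were not established in every library. Reads, at most 46 in Elovl3, Elovl4 and Elovl7, limit what can be resolved for these genes.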

Other observations

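Some pathway genes outside the rule for named genes are described here. They were chosen after their values were seen, and none was called. Srebf1, the sterol-regulated factor that drives fatty acid synthesis, stood at 1210 and 944 normalised reads in controls 1 and 2, and at 1345 and 1496 in knockouts 1 and 3. Its log2 fold change was 0.41 (SE 0.13, limma adjusted p = 0.0649), not called. Fasn, the fatty acid synthase, stood at 10472, 9315, 10529 and 11772 in the same order, not called (limma adjusted p = 0.201). Pparg, a lipid-sensing nuclear receptor, stood at 90.2 and 98.2 in the controls and 165 and 124 in the knockouts, not called (limma adjusted p = 0.116). Fa2h, which hydroxylates fatty acids of sphingolipids, stood at 139 in control 2 and between 27.7 and 35.1 in the other libraries, so that control 2 alone was high (limma adjusted p = 0.265 between groups).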
